A study of Mus musculus with 8 samples.

Results

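In the single-cell library of the relapsed medulloblastoma, 98 cells devoted at least 5% of their transcripts to growth hormone (Gh) and prolactin (Prl), the main products of the anterior pituitary. They were chosen from the 7839 cells of that library that had 500 genes or more and no more than 10% mitochondrial transcripts, of 16933 such cells in the series, and made up 1.25% of them (exact Clopper-Pearson 95% interval, 1.02 to 1.52%). Of the 98 hormone-rich cells, 29 held more Gh than Prl (Gh-led cells) and 69 more Prl than Gh (Prl-led cells). No cell held equal amounts. The primary tumour library held 0 such cells among 9094, and 3 cells, the limit taken here for a count of 0, would be a share of 0.0330%. Because Gh and Prl chose the cells, their values are a description and support nothing.

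Both single-cell libraries came from Patched 1 deficient mice, in which loss of the receptor that restrains Hedgehog signalling gives medulloblastoma, a cerebellar tumour of the granule neuron lineage. There was 1 library of a primary tumour and 1 of a tumour that had relapsed, taken at 3 weeks by its label. Astrocytes sorted from such tumours were sequenced in bulk in 3 libraries of stroma A and 3 of stroma B, and the labels do not say which stroma is primary. The labels give no age, sex, treatment before relapse or number of animals, and the free-text description of the relapsed library names a primary tumour; its title and source label were followed. Flow cytometry was used to sort the cells and papain to dissociate the tissue.

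The anterior pituitary is built from hormone-secreting cell types that each make a main hormone: somatotrophs make growth hormone, lactotrophs prolactin, thyrotrophs thyrotropin, gonadotrophs the gonadotropins and corticotrophs the precursor protein Pomc. Somatotrophs, lactotrophs and thyrotrophs share the POU-domain transcription factor Pou1f1 (Pit-1), which binds the Gh, Prl and Tshb genes and is needed for these lineages to form. None of these cell types belongs to the cerebellum.

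The relapsed library held 69403567 unique molecular identifiers (UMIs, each counting 1 captured transcript) in 7852 barcodes, with a median of 7230 UMIs and 2505 genes in the cells that passed. The primary library held 56332247 UMIs in 9164 barcodes, with medians of 5431 and 2135. The libraries shared 93 barcodes, and 2 of these were hormone-rich cells. With 1 library per condition and cells that are not replicates, no test was made. Intervals are 95% intervals for counting error alone, and levels are counts per 1000000 UMIs (CPM) with Gh and Prl left out of every total unless stated.

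The regulatory sequences below are the 300 bases around the start of 3 genes that these cells expressed: Prl itself, Pou1f1, and Crhbp, the gene with the highest ratio to the other cells. They are RefSeq sequence on GRCm38.p6, from 250 bases before the start site to 50 after it, written 5′ to 3′ on the gene's strand. Capitals mark matches to ATGNATA or its reverse complement TATNCAT, a core of the sequence that Pou1f1 is known to bind. The windows are chr13:27057320-27057619 (plus strand) for Prl, chr16:65520262-65520561 (plus strand) for the upstream of the 2 Pou1f1 starts, and chr13:95444782-95445081 (minus strand) for Crhbp.

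Prl: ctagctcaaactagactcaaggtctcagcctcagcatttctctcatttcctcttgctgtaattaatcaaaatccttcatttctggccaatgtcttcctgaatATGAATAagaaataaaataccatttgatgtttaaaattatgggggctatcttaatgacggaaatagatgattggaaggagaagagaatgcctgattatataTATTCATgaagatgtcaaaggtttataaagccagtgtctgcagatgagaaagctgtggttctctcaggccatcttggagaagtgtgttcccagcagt

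Pou1f1: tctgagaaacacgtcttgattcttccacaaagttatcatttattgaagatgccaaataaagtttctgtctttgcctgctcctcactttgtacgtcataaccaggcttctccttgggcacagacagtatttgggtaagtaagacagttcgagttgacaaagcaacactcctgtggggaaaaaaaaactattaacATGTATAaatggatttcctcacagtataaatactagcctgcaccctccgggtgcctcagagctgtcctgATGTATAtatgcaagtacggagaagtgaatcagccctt

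Crhbp: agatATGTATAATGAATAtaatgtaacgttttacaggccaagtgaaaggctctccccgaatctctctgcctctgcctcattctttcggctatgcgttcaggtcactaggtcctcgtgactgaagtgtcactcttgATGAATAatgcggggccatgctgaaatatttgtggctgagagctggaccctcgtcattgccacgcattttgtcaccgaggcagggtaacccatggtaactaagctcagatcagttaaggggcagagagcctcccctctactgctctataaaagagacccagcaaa

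With the start site counted as 0, the Prl window matched at −148 (ATGAATA) and −47 (TATTCAT), and held the TATA-box letters TATAAA at −24. The Pou1f1 window matched ATGTATA at −57 and again at 12, and the window of its other start held no match. The Crhbp window matched 3 times, at −246, −239 and −115, and the first 2 of these adjoin. Of all 32851 promoter windows of this length, 2903 (8.84%) held a match on either strand. The windows of Tshb, Dlk1, Cga, Pomc, Six6 and Chgb, all described here, held none. Among genes with a window, 21 of 570 (3.68%) that were at least 4-fold higher in hormone-rich than in other cells held a match, against 154 of 4580 (3.36%) of all genes compared. These matches describe letters in a window and nothing about binding.

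Gh lies on chromosome 11 at 106300271 to 106301865 (minus strand) and Prl on chromosome 13 at 27057570 to 27065205 (plus strand), in mm10 coordinates of GENCODE M21. In the 29 Gh-led cells, Gh counted 660 UMIs in the lowest cell, 8660 in the median cell and 23588 in the highest. In the 69 Prl-led cells, Prl counted 298, 2381 and 15595 UMIs in the same order. The 2 hormones together made up between 5.75% and 70.9% of a cell's UMIs, with a median of 29.8%. The median was 42.9% in Gh-led cells and 22.3% in Prl-led cells, and the ranges overlapped.

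The 2 hormones were nearly exclusive of each other within a cell. Gh-led cells held a median of 3 Prl UMIs and at most 29, and Prl-led cells a median of 2 Gh UMIs and at most 155. The lesser hormone stood at 10 UMIs or fewer in 27 of 29 Gh-led and 68 of 69 Prl-led cells. A single Prl-led cell passed 10% of its hormone UMIs in the lesser hormone, with 155 Gh and 746 Prl UMIs. That cell also held 9 Pou1f1 and 121 Dlk1 UMIs and lay close to the threshold, at 5.85% hormone.

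**Figure D1:**
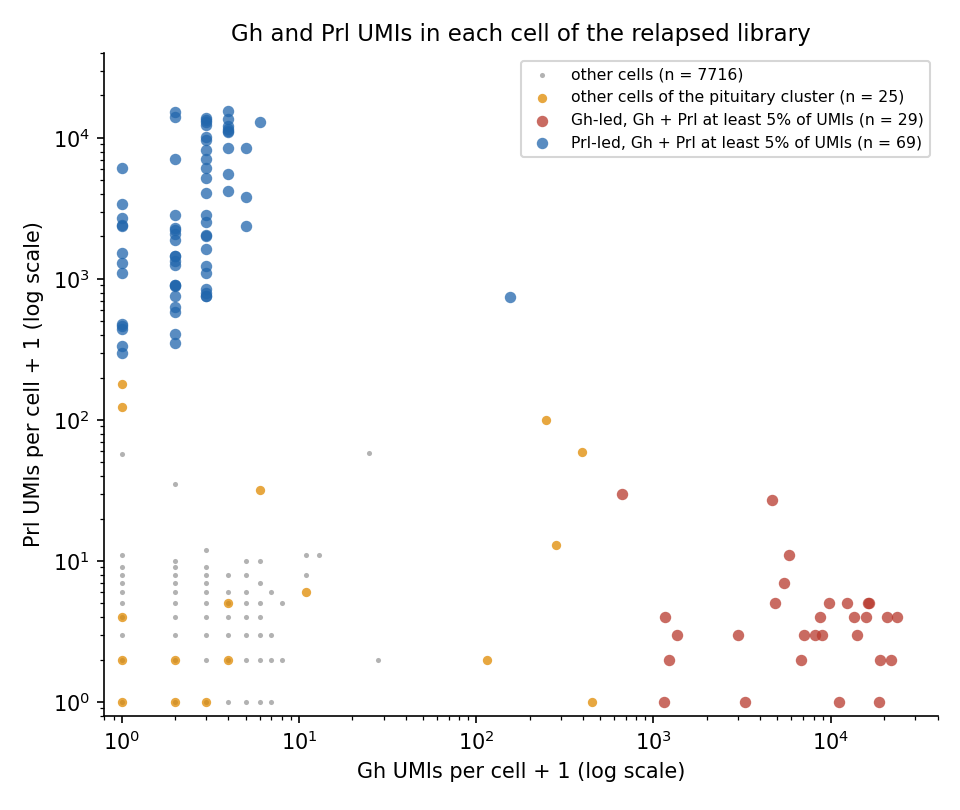
Gh UMIs plus 1 against Prl UMIs plus 1 in the cells of the relapsed library, on log axes, coloured by kind of cell (points may stand for several cells with equal values). The Gh-led cells lie along the Gh axis and the Prl-led cells along the Prl axis, with the cell of 155 Gh and 746 Prl UMIs between them.

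Few cells lay near the threshold. Hormone shares between 0.5% and 1% were found in 0 cells, between 1% and 2% in 2 and between 2% and 5% in 6, against 14 between 5% and 10%, 25 between 10% and 20%, 24 between 20% and 40%, and 35 at 40% or more. The cell just inside the threshold stood at 5.75%, with 660 Gh and 29 Prl UMIs, and the next at 5.84%, with 0 and 463. The cells just outside stood at 4.58% (447 Gh UMIs and 0 Prl), 3.74% (248 and 99) and 3.45% (392 and 58). The last of these also held 416 UMIs of Cga, the alpha subunit shared by thyrotropin and the gonadotropins.

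Hormone-rich cells held a median of 14078.5 UMIs, against 7193 in the other 7741 cells of the library. Without Gh and Prl the medians were 9597 and 7193, and the hormone-rich cells had a median of 2952.5 detected genes against 2500. Gh-led cells had the larger total (18680 UMIs against 12112 in Prl-led cells), and without the hormones the medians lay at 9323 and 9793. Ribosomal protein genes took a median of 28.4% of the remaining UMIs in hormone-rich cells and 23.7% in the others.

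Clustering the library without Gh and Prl placed all 98 hormone-rich cells in 1 of 21 clusters. That cluster held 123 cells, and its membership of hormone-rich cells was 98 of 98 at each of 3 clustering resolutions. Its raised markers from the list of pituitary transcription factors included Pou1f1, Pitx1, Lhx3, Six3 and Six6, so it is called pituitary-like. The other 25 cells of the cluster were led by other pituitary hormones or by less Gh and Prl. Pomc led in 12, with 79 to 1757 UMIs and Pou1f1 in 0 of them. Cga led in 7, with 12 to 789 UMIs, beside up to 209 UMIs of Lhb and 53 of Fshb, the beta subunits of the gonadotropins. Gh led in 4 and Prl in 2, below the 5% threshold.

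**Figure D2:**
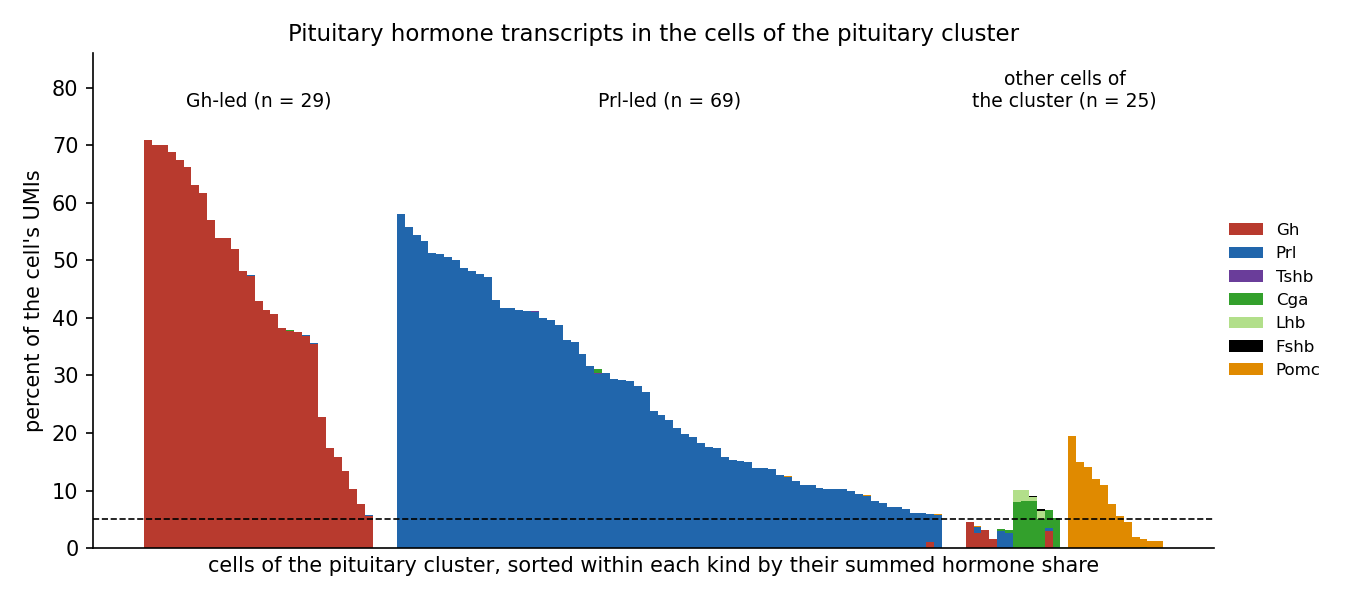
Share of each cell's UMIs, in percent, taken by each anterior pituitary hormone gene in the 123 cells of the pituitary-like cluster, which was built without Gh and Prl. Each bar is a cell, and the dashed line is the 5% threshold for Gh plus Prl. The bars of Gh-led and Prl-led cells hold mostly 1 hormone, and the other 25 cells hold Pomc, Cga, or less Gh or Prl.

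The label was checked against pituitary markers that the rule did not use. Pou1f1 stood at 420 CPM (381 to 463) in hormone-rich cells and 0.384 (0.251 to 0.563) in the other cells. It was detected in 92 of 98 hormone-rich cells and 15 of 7741 others, and 19 of the 26 UMIs in the others were in the remaining cells of the pituitary-like cluster. In Gh-led cells it counted 0 to 11 UMIs with a median of 4, and in Prl-led cells 0 to 16 with the same median. Of the marker lists for other classes of cell, the cluster raised 1 fibroblast gene, Col1a2, and 1 gene shared by the corticotroph and melanotroph lists, Pomc.

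Of the 16 pituitary transcription factors listed, 6 were at least 4-fold higher in hormone-rich cells, a seventh passed the count minimum at 3.99-fold, and 5 were at 0 UMIs. The rest were under the minimum. Of these Otx2 (8 UMIs) was lower, at 8.01 CPM against 40.1 (interval of the ratio, 0.0862 to 0.394). Isl1, Gata2 and Nr5a1 stood above the other cells, on 7, 3 and 1 UMIs. Pitx1, a homeobox factor of the whole gland, stood at 97.1 CPM against 1.03. Six3 and Six6, factors of the early eye and pituitary fields, stood at 51.1 against 0.53 and at 206 against 0.55. Lhx3, a LIM-homeobox factor of the pituitary, stood at 31.0 against 2.22. These factors were not particular to the hormone-rich cells. In the remaining cells of the pituitary-like cluster Pitx1 stood at 290 CPM, Six3 at 156 and Lhx3 at 60.5, above the hormone-rich cells. Six6 stood at 138 there, below them. Neurod4 was the gene at 3.99-fold, with 25.0 CPM against 6.28. The factors at 0 UMIs included Hesx1 and Lhx4, which act in the developing gland, and Tbx19 and Pax7, which mark the Pomc lineages. Since such genes passed the minimum through the hormone-rich cells alone, their count is a description.

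Across all genes, 750 of 5866 (12.8%) were at least 4-fold higher in hormone-rich cells and 188 (3.2%) at least 4-fold lower. A gene was compared with at least 20 UMIs in hormone-rich cells or 100 CPM in the others, and 4340 of the 5866 passed only through their UMIs in hormone-rich cells. The median log2 ratio was 0.11. With Gh and Prl kept in the totals it moved to −0.58, with 530 genes higher and 508 lower. These cells and the contrast are those of the rule, so the counts for gene groups below describe the cells and are read against these shares.

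All 5 compared somatotroph genes and all 4 compared lactotroph genes were higher by that rule, with Pou1f1 in both lists, beside 12.8% of all genes compared. The median log2 ratios were 8.88 and 4.25. Each of these genes passed the minimum through the hormone-rich cells alone, so the counts and medians are descriptions and support nothing. Dlk1, a Notch-like membrane protein of somatotrophs, reached 4781 CPM against 10.1 and was found in 97 of 98 hormone-rich cells. Ghrhr, the receptor through which the hypothalamus drives growth hormone release, stood at 31.0 CPM against 0.015 in the other cells, where it was 1 UMI (ratio 2101, 350 to 85614). Esr1, the oestrogen receptor of lactotrophs, stood at 67.1 against 0.93. Angpt1 and Edil3, secreted proteins listed for lactotrophs, stood at 45.0 against 8.97 and at 72.1 against 16.5, and both were under 4-fold with Gh and Prl kept in the totals. Ghsr, the ghrelin receptor, was at 0 UMIs, and Agtr1a, an angiotensin receptor, had 7. Drd2, the dopamine receptor through which lactotrophs are held back, was at 0 UMIs in both single-cell libraries, and 3 UMIs, the limit taken for a count of 0, would be 3.00 CPM in the hormone-rich cells. Its reads were present in every sorted astrocyte library, at 2 to 17 per library.

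The other pituitary hormones were scarce and lay in few cells. Tshb, the beta subunit of thyrotropin, counted 122 UMIs in 14 of 98 cells, 6 Gh-led and 8 Prl-led, with 48 in the highest, against 5 UMIs in all other cells. Cga counted 160 UMIs in 6 cells, and 137 of them were in 1 Prl-led cell that also held 37 Tshb UMIs and 9 of Pou1f1. Lhb counted 2 UMIs and Fshb 0. Pomc was detected in 36.7% of hormone-rich cells but at no more than 3 UMIs a cell, at 45.0 CPM against 100 in the other cells. Without the 25 remaining cells of the pituitary-like cluster, Cga and Pomc stood at 3.31 and 7.25 CPM in the other cells. Against all other cells, 2 of 3 thyrotroph genes passed the 4-fold rule (Tshb and Dio2, a deiodinase), 0 of 1 gonadotroph, 1 of 2 corticotroph (Pcsk1, a prohormone convertase) and 0 of 1 melanotroph genes. Without those 25 cells Cga and Pomc passed too, and the counts were 3 of 3, 1 of 1, 2 of 2 and 1 of 1. No gene of the pituitary stem cell and folliculostellate list or of the pituicyte list passed the minimum.

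After Crhbp and Ghrhr, the highest ratios belonged to Akr1c14, Tshb, 5330416C01Rik, Gm7967, Ehf, Rxfp1, Pou1f1 and Klf14, followed by Asb4, Cldn8, Smco2, Spock3, Hapln1, Jakmip1, Dlk1, Gal, Igsf1 and Hepacam2. Crhbp, which encodes the binding protein of corticotropin-releasing hormone, counted 230 UMIs in 51 hormone-rich cells and 3 in all other cells, a ratio of 5195 (1756 to 25377). Akr1c14, an aldo-keto reductase that acts on steroids, stood at 74.1 CPM in hormone-rich cells with 3 UMIs elsewhere (ratio 1671, 550 to 8290). Rxfp1, the relaxin receptor, stood at 76.1, and Igsf1, an X-linked membrane glycoprotein of Pou1f1-lineage cells, at 67.1. Gal, which encodes the peptide galanin, stood at 2103 CPM against 4.62 and was found in 82 of the cells. Ehf (21 UMIs) had 1 UMI in the other cells (ratio 1423, 229 to 58849) and Klf14 had 2 (ratio 779, 193 to 6819). The range of the 20 ratios was 407 to 5195, and those with 1 to 3 UMIs elsewhere carry wide intervals.

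Most compared genes of regulated secretion were high. Of 21 compared genes of secretory granules and neuroendocrine cells, 14 were at least 4-fold higher and 0 lower, beside 12.8% and 3.2% of all genes compared. Only 5 of the 21 passed the minimum through the other cells, so the counts are descriptions. The list summed to 16375 CPM against 2233. It summed to 19125 CPM in the remaining cells of the pituitary-like cluster, so the high level was not particular to the hormone-rich cells. Of the 4 genes under the minimum, Pcsk2, a prohormone convertase, counted 15 UMIs against 78.1 CPM in the other cells (ratio 0.192, 0.107 to 0.317), and Stx1a, a membrane fusion protein, had 3 UMIs against 12.3 CPM elsewhere (ratio 0.244, 0.0503 to 0.717). Pcsk1n, an inhibitor of prohormone convertase, stood at 3578 against 51.5. Chgb and Scg2, granule proteins of the granin family, stood at 2585 against 69.4 and at 351 against 9.99, and Resp18 at 1053 against 3.53. Scg5, a chaperone of prohormone convertase, stood at 2386 against 304. Gnas, the stimulatory G protein subunit that passes the Ghrhr signal to adenylyl cyclase, had the most UMIs of the list, at 3959 CPM against 1038 (3.82-fold).

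The endoplasmic reticulum list, which loads new secreted proteins into the secretory pathway, had 10 of 28 genes at least 4-fold higher and 0 lower, with a sum of 12618 CPM against 4309 and a median log2 ratio of 1.44. Sec61b, a translocon subunit, stood at 1363 against 312, and Ssr4, a translocon-associated protein, at 1305 against 209. The translocon subunit Sec61g had the most UMIs and was under the threshold, at 1722 against 912. Xbp1 and Creb3l2, transcription factors of secretory capacity, stood at 172 against 17.4 and at 77.1 against 2.81. All 28 genes of this list passed the minimum, 18 of them through the other cells. With Gh and Prl kept in the totals 5 of 28 were at least 4-fold higher.

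**Figure D3:**
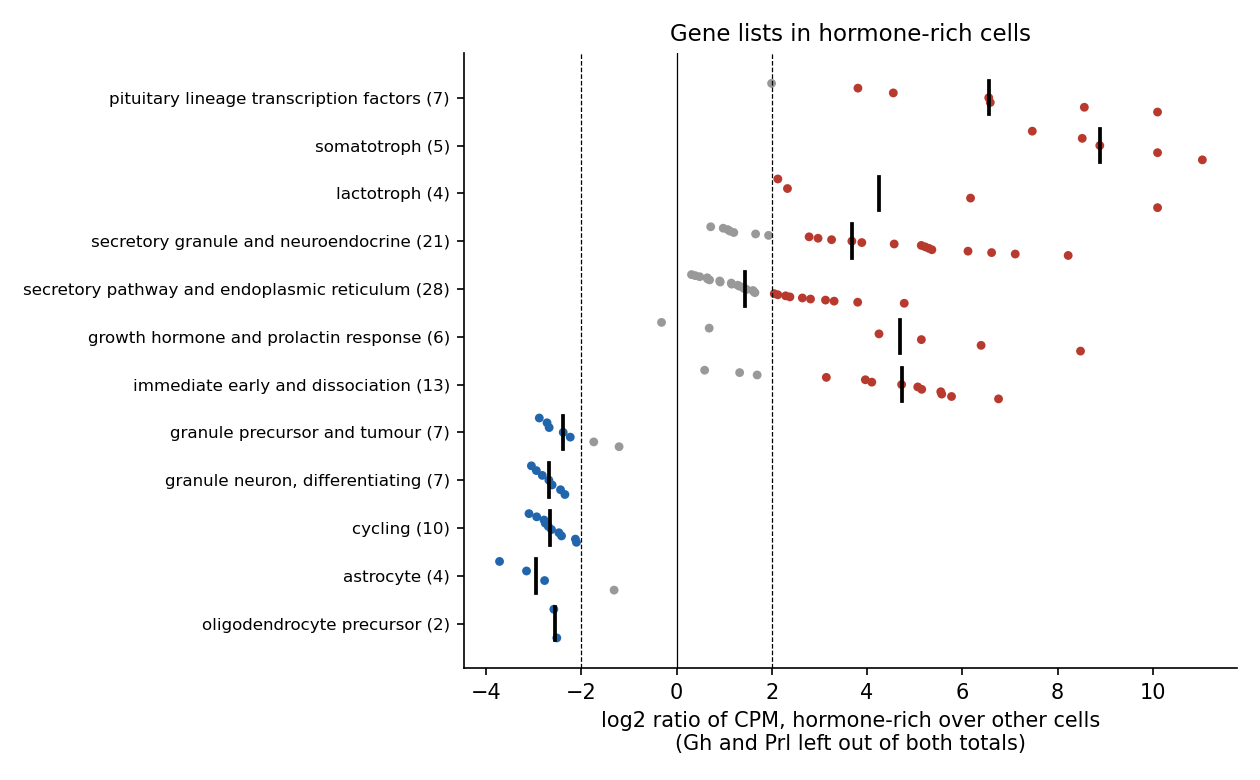
Log2 ratio of each compared gene, hormone-rich over other cells, by gene list, with dashed lines at 4-fold higher and lower, black bars at list medians and the number of compared genes in parentheses. All 5 somatotroph and 4 lactotroph genes lie beyond the upper line and all 10 cycling genes beyond the lower. The somatotroph and lactotroph genes passed the minimum through the hormone-rich cells alone.

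Of 6 compared genes of the growth hormone and prolactin response, 4 were at least 4-fold higher, beside 12.8% of all genes compared. Only 1 of the 6 passed the minimum through the other cells, so the count is a description. The list held 11 genes, and the rest were under the minimum. Among them Ghr, the growth hormone receptor, counted 1 UMI in Gh-led and 1 in Prl-led cells. In the same order Igfbp3 counted 0 and 1, Igf1 5 and 0, Jak2 0 and 7, and Igfals 0 and 0. Prlr, the prolactin receptor, stood at 79.1 CPM against 0.22, and Cish, a feedback inhibitor of cytokine receptors, at 32.0 against 1.68. Stat5a and Stat5b, the transcription factors that these receptors activate, stood at 31.0 against 0.37 and at 26.0 against 0.74. Socs2 stood at 84.1 against 105 and Socs3 at 72.1 against 44.8, both feedback inhibitors too. Of the receptors for hormone release, Ghrhr and Esr1 were higher and Sstr2, a somatostatin receptor, was lower (26.0 against 230). Of the hypothalamic peptide list, 12 of 13 genes were at 0 UMIs in hormone-rich cells, where 3 UMIs would be 3.00 CPM. Only Sst (14.6 CPM) and Th (5.16) stood above that level in the other cells. The remaining zeros therefore do not set the hormone-rich cells apart.

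Genes that respond at once to stimulation, and to dissociation of tissue, were high in hormone-rich cells, at 5690 CPM summed against 1009. Of 13 compared, 10 were at least 4-fold higher, beside 12.8% of all genes compared. Only 3 of the 13 passed the minimum through the other cells, so the count is a description. Fos stood at 1061 against 30.0, Junb at 917 against 19.4 and Hspa1a at 465 against 4.30, where Hspa1a has a near-identical copy, Hspa1b, that could share its reads. Jund was under the threshold, at 821 against 545. The same list summed to 8936 CPM in the remaining cells of the pituitary-like cluster, 2990 in endothelial-like, 1800 in astrocyte-like and 948 in granule-lineage cells. The papain dissociation is common to all cells of the library, and its part in these values was not tested.

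Genes of the tumour lineage were low. The hormone-rich cells were at least 4-fold lower for 5 of 7 compared granule precursor and tumour genes, 7 of 7 genes of differentiating granule neurons and 10 of 10 cycling genes. Sfrp1 stood at 168 CPM against 1073, Zic1, a granule lineage transcription factor, at 69.1 against 508, and the cell cycle gene Ube2c at 55.1 against 471. Ptch1, which is deficient in these animals, stood at 44.0 against 147 and was under the 4-fold rule. Among the 10 lowest genes with 100 CPM or more elsewhere, Mgp (5.01 against 186), Prm1 (13.0 against 270), Fabp7 (13.0 against 228) and Apoe (32.0 against 420) led, followed by Ccnb2, Lingo1, Slc1a3, Sstr2, Ube2c and Cacng2, at 8.36-fold to 11.4-fold lower. Mgp, Fabp7 and Apoe were found in fewer of the other cells (3.85%, 6.07% and 19.3%) than of hormone-rich cells (5.10%, 13.3% and 26.5%). Prm1 stood at 11326 CPM in astrocyte-like, 3808 in oligodendrocyte precursor-like and 59.6 in granule-lineage cells. The lowest genes are thus not all genes of the tumour lineage.

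Markers of blood-derived and vascular cells were near 0 in hormone-rich cells. Summed levels were 6.01 CPM for 11 microglia and macrophage genes, 9.01 for 7 endothelial genes, 1.00 for 6 pericyte genes and 0 for the T and NK cell, neutrophil and pancreatic islet lists. Of the glial lists, 3 of 4 compared astrocyte genes and 2 of 2 oligodendrocyte precursor genes were at least 4-fold lower, beside 3.2% of all genes compared. The oligodendrocyte precursor list summed to 165 CPM in hormone-rich and 924 in granule-lineage cells. It summed to 175 in fibroblast-like and 165 in pericyte-like cells, so the low level was not particular to the hormone-rich cells. Among fibroblast genes Col1a2 was high, a collagen gene, at 567 CPM against 12.1, while Pdgfra of the same list was lower. Col1a2 was found in 69 of 69 Prl-led and 20 of 29 Gh-led cells.

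Some hormone-rich barcodes were scored as doublets, that is as 2 cells sharing a barcode. Doublet scoring without Gh and Prl marked 8 of 98 (8.16%; 5 of 29 Gh-led and 3 of 69 Prl-led cells), against 5.81% of the other cells. The granule precursor list summed to 1963 CPM in the marked cells, 491 in the unmarked hormone-rich cells and 3406 in the other cells. Pou1f1 stood at 180 and 465 CPM in the marked and unmarked cells.

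Gh-led and Prl-led cells were then compared with each other, outside the hormones that define them. Of 4352 genes with at least 20 UMIs in either kind, 204 (4.69%) were at least 2-fold higher in Gh-led cells and 335 (7.7%) in Prl-led cells, with a median log2 ratio of 0.01. Without the hormones, Gh-led cells summed to 319178 UMIs and Prl-led cells to 679825, so the minimum was stricter in CPM for Gh-led cells. Only 71 genes passed through Gh-led cells alone, so the 2 counts cannot be set against each other. With Gh and Prl kept in the totals the counts were 99 and 678, and the median moved to −0.35. Pou1f1 was under the 2-fold threshold, at 388 CPM in Gh-led and 435 in Prl-led cells, a ratio of 0.892 (0.718 to 1.10).

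Among genes of somatotrophs, Ghrhr counted 31 UMIs in 19 of 29 Gh-led cells and 0 in the 69 Prl-led cells. It stood at 97.1 CPM, 22.0-fold higher with the 0 set to 3 UMIs over the group (lower bound of the interval, 16.9). Pappa2, a protease of insulin-like growth factor binding proteins, counted 27 UMIs in 17 Gh-led cells and 0 in Prl-led cells. With the same floor it was 19.2-fold higher (lower bound, 14.5). Rxrg, a retinoid X receptor, was found in 23 of 29 Gh-led and 2 of 69 Prl-led cells, at 135 against 5.88 CPM. Dlk1 ranged from 27 to 188 UMIs in Gh-led cells (median 76) and from 0 to 124 in Prl-led cells (median 26), at 7131 against 3677 CPM, or 1.94-fold. Of 5 compared somatotroph genes, Ghrhr, Pappa2 and Rxrg thus passed the 2-fold rule, and 0 were higher in Prl-led cells.

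The highest ratios to Prl-led cells also included Dapl1 at 150 CPM against 2.94 (51.1-fold, 13.4 to 434), Kcnk2, a potassium channel, at 235 against 5.88 (39.9-fold), and Sytl4, a granule-docking protein of the synaptotagmin-like family, at 113 against 2.94 (38.3-fold, 9.87 to 329). Penk, the enkephalin precursor, stood at 147 against 5.88 and Bambi, a decoy receptor of the transforming growth factor beta family, at 62.7 against 2.94 (21.3-fold, 5.17 to 188). Fam46c and Crispld2 had 0 UMIs in Prl-led cells. With the 0 set to 3 UMIs they were 17.7-fold and 16.3-fold higher (lower bounds, 13.4 and 12.2). Kcnk2 was found in 24 of 29 Gh-led cells, the widest detection of these 10 genes. The imprinted gene Nnat, chosen after its values were seen, was found in 29 of 29 Gh-led cells with a median of 56 UMIs and in 42 of 69 Prl-led cells with a median of 1.

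In the other direction, Crhbp counted 230 UMIs in 51 of 69 Prl-led cells and 0 in all 29 Gh-led cells. It stood at 338 CPM, 36.0-fold higher in Prl-led cells with the 0 set to 3 UMIs. The interval of its ratio of Gh-led to Prl-led cells reached up to 0.0344. Hepacam2, an adhesion molecule, was found in 45 Prl-led and 3 Gh-led cells, and Rxfp1 in 38 and 1. With 1 to 3 UMIs in Gh-led cells, the ratio of Gh-led to Prl-led cells was 0.0687 (0.0139 to 0.207) for Hepacam2, 0.0576 (0.00684 to 0.215) for Rxfp1, 0.0402 (0.000999 to 0.234) for Stbd1 and 0.0435 (0.00108 to 0.254) for Hapln1. Hmcn1, A830018L16Rik, Lrrtm2, C1ql2 and Steap3 completed the 10 lowest ratios. Of the 4 compared lactotroph genes, Angpt1 (9.40 CPM in Gh-led against 61.8 in Prl-led cells) and Edil3 (15.7 against 98.6) were higher in Prl-led cells. Esr1 stood at 56.4 against 72.1 and was found in 14 of 29 and 32 of 69 cells, so it was not limited to Prl-led cells.

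Several pituitary factors were also higher in Prl-led cells: 4 of 6 compared, and 0 in Gh-led cells, beside 7.7% and 4.69% of all genes compared. Under the minimum, Isl1 counted 6 UMIs in Gh-led and 1 in Prl-led cells (ratio 12.8, 1.55 to 588). Neurod4 stood at 34.5 CPM in Gh-led and 20.6 in Prl-led cells and Otx2 at 9.40 and 7.35. Gata2 counted 3 and 0 UMIs and Nr5a1 1 and 0. Pitx1 stood at 50.1 CPM in Gh-led and 119 in Prl-led cells, Six6 at 78.3 and 266, and Six3 at 9.40 and 70.6 (ratio 0.133, 0.0265 to 0.413). Six6 was found in 13 of 29 Gh-led and 57 of 69 Prl-led cells. Lhx3 was near equal, at 34.5 and 29.4. The granin Chgb stood at 1184 and 3242 CPM and the collagen gene Col1a2 at 138 and 768. Tshb and Cga were 2-fold or more higher in Prl-led cells too, at 159 against 43.9 and 206 against 62.7 CPM. Cga rested on 1 cell, since without the Prl-led cell of 137 UMIs the other Prl-led cells held 3 UMIs (4.50 CPM). Without their own highest Cga cell, Gh-led cells stood at 26.1 CPM. Tshb without the highest cell of each kind stood at 90.4 CPM in Prl-led and 16.1 in Gh-led cells. It was found in 6 of 29 Gh-led and 8 of 69 Prl-led cells, and Cga in 2 and 4. The 20 genes with the highest and lowest ratios between the kinds were also checked without 1 cell. Each stayed at least 2-fold apart when the cell with the most UMIs was left out of the kind where the gene was higher.

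**Figure D4:**
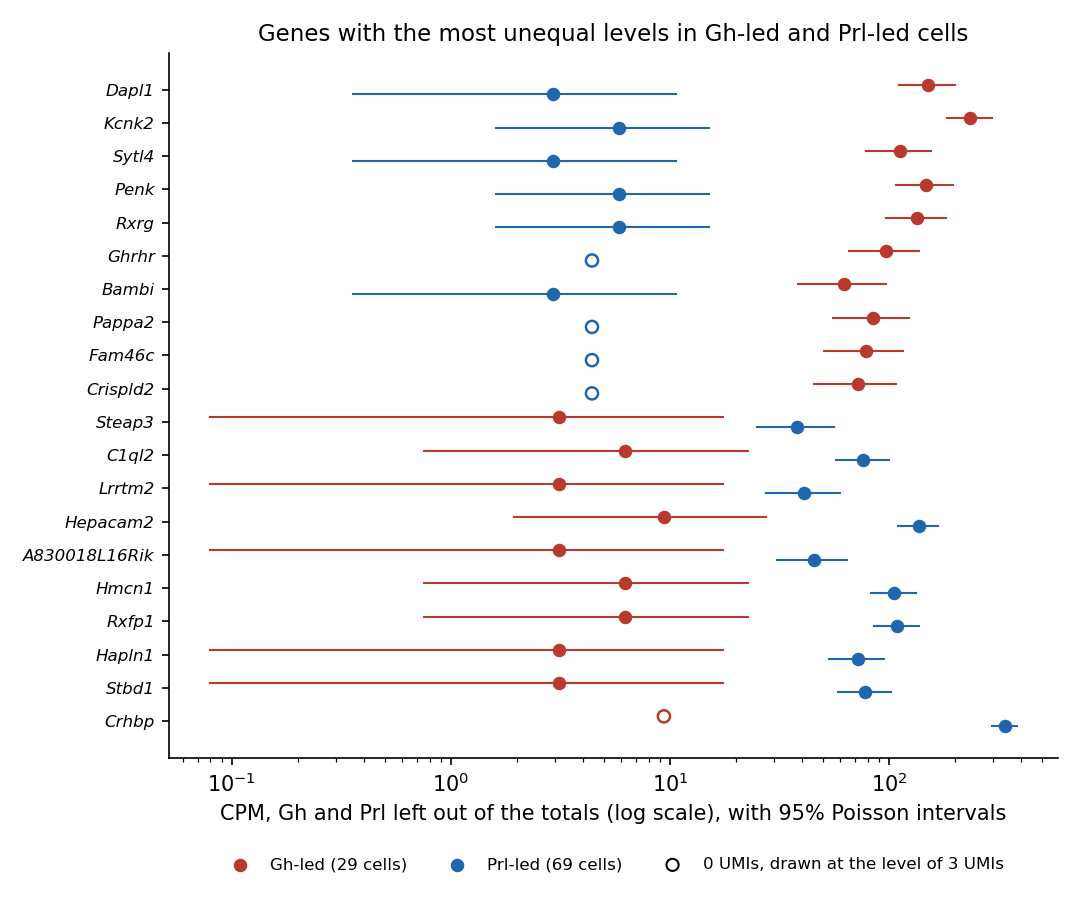
Levels in CPM (log axis) in Gh-led and Prl-led cells of the 20 genes with the most unequal levels, with exact Poisson 95% intervals as lines and open circles for genes at 0 UMIs, drawn at the level of 3 UMIs. Ghrhr, Pappa2, Fam46c and Crispld2 are at 0 in Prl-led cells and Crhbp is at 0 in Gh-led cells.

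Part of the difference between the kinds moved with the doublet marks. Granule precursor genes were 2-fold or more higher in Gh-led cells for 4 of 6 compared, and cycling genes for 6 of 6. Without the marked doublets, 0 of 3 granule precursor genes passed and no cycling gene met the minimum, and cycling genes summed to 182 CPM in Gh-led and 162 in Prl-led cells, against 652 and 240 with all cells. Over all genes, 133 in place of 204 were then higher in Gh-led cells, of which 88 were shared. For somatotroph genes the count was 4 of 5 in place of 3, and for genes higher in Prl-led cells it was 4 transcription factors and 2 lactotroph genes with or without the doublets.

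Hormone share varied within each kind, and it moved with other genes of secretion in Prl-led cells. Over the 69 Prl-led cells, Spearman's correlation with hormone share was 0.83 for Scg5, 0.74 for the secreted protease inhibitor Cst3 and 0.70 for Chgb, and 0.51 for the summed endoplasmic reticulum list. It was −0.64 for the ribosomal share of the other UMIs, −0.50 for the immediate early list and 0.08 for Pou1f1. Over the 29 Gh-led cells, it was 0.60 for Selk, an endoplasmic reticulum selenoprotein, 0.30 for the endoplasmic reticulum list, −0.57 for Pcsk1n and −0.45 for the immediate early list. All cells are of 1 library and each cell's depth enters both measures, and the named genes are the extremes of 425 genes in Prl-led and 200 in Gh-led cells, so these are descriptions.

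The hormone-rich cells differed from the tumour lineage in X- and Y-linked genes, which the rule did not use. Xist, the RNA transcribed from an inactive X chromosome, stood at 1513 CPM (1437 to 1591) and was found in 95 of 98 hormone-rich cells. In the 7535 granule-lineage cells it stood at 0.665 CPM, in 30 cells (0.398%), and in their 14 clusters between 0 and 8.38. Thinned to 1000 UMIs a cell, 64.3% of hormone-rich and 0.0929% of granule-lineage cells had a Xist UMI. The 4 Y-linked genes measured (Ddx3y, Eif2s3y, Kdm5d and Uty) summed to 22.0 CPM (13.8 to 33.3) in hormone-rich cells, with no cell above 3 UMIs, and to 197 in granule-lineage cells. In the 8 barcodes marked as doublets the Y sum was 77.2 CPM, and in the other 90 it was 11.9.

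The hormone-rich cells were not alone in this. Xist stood at 974 CPM in microglia-like cells, 1508 in endothelial-like, 1180 in fibroblast-like and 1477 in pericyte-like cells, and at 17.1 in astrocyte-like cells, with 0 UMIs in the 37 oligodendrocyte precursor-like cells. The Y sum was 169 CPM in astrocyte-like and 159 in oligodendrocyte precursor-like cells, and between 16.6 (microglia-like) and 55.5 (endothelial-like) in the others. The clusters therefore fell into those with Xist and little Y-linked RNA, to which the hormone-rich cells belong, and those with Y-linked RNA and little Xist. The labels give neither the sex of the animals nor whether tumour cells were transferred into a host, and the cause was not tested.

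**Figure D5:**
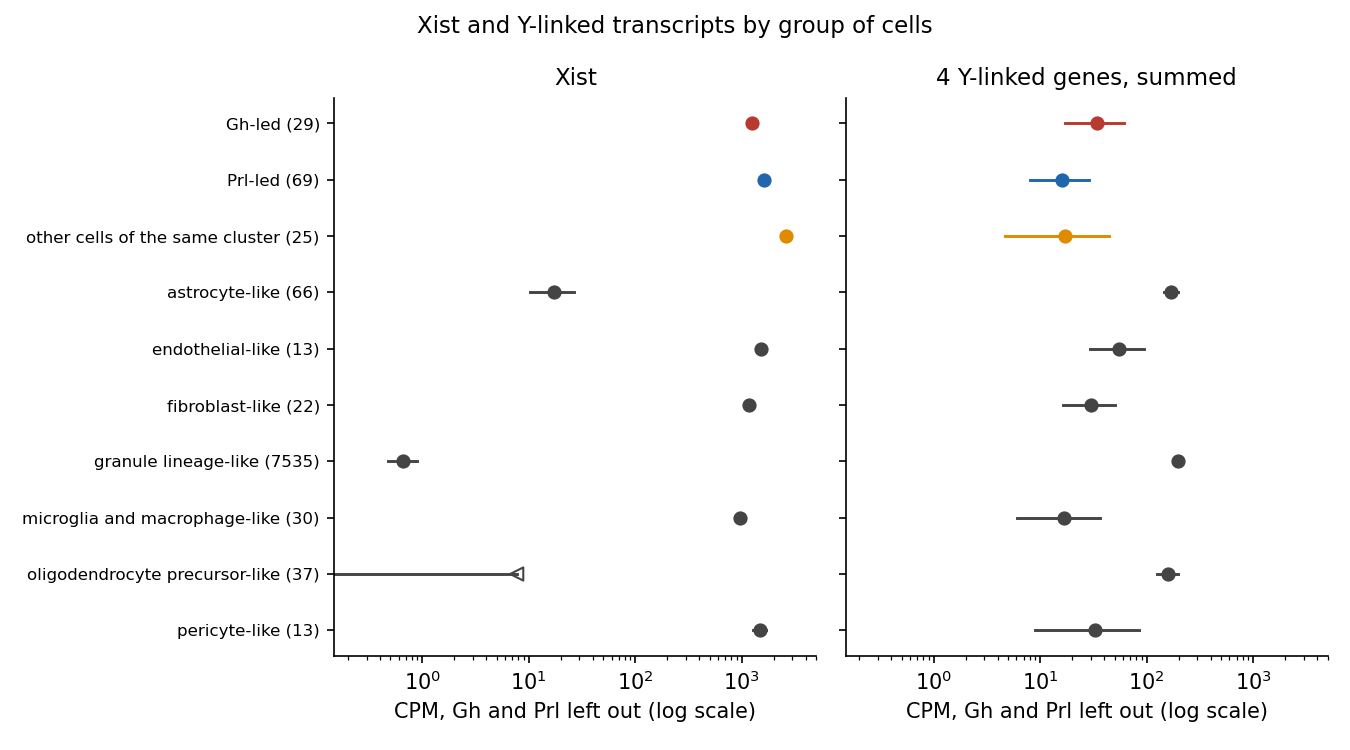
Xist (left) and the sum of 4 Y-linked genes (right) in CPM, on log axes with exact Poisson 95% intervals as lines, for each class of cells of the relapsed library; an open triangle marks the upper bound of a class at 0 UMIs. The Gh-led and Prl-led cells lie with the microglia-like, endothelial-like, fibroblast-like and pericyte-like cells, and the granule lineage lies with the astrocyte-like and oligodendrocyte precursor-like cells.

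Gh and Prl were also detected at low level throughout the relapsed library. Hormone-rich cells held 97.7% of the 292108 Gh and 97.7% of the 330615 Prl UMIs. With all UMIs in the total, granule-lineage cells stood at 77.2 CPM for Gh (75.1 to 79.3) and 105 for Prl (103 to 108), with a UMI in 45.6% and 55.3% of cells at a median depth of 7111. After thinning to 1000 UMIs the shares were 7.49% and 10.1%. The ratio of Gh to Prl UMIs was 0.734 (0.708 to 0.761), and it ranged from 0.573 to 0.907 over the 14 granule clusters. Microglia-like cells stood at 138 CPM for Gh and 304 for Prl, and at 72.9 and 149 without the 1 cell of 24 Gh and 57 Prl UMIs. In the hormone-rich cells themselves, the lesser hormone stood at 262 CPM for Gh in Prl-led cells and 207 for Prl in Gh-led cells, in 17.4% and 17.2% of thinned cells. Without the highest cell of each kind these levels were 109 and 162 CPM, so the Gh level rested largely on the cell with 155 Gh UMIs.

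Outside the relapsed library the hormones were scarce. The primary library held 0 Gh UMIs and 20 Prl UMIs in 20 cells (0.356 CPM), with 0 UMIs of Pou1f1. No primary cell devoted more than 0.038% of its UMIs to the hormones. For Gh, the sorted astrocytes of stroma A held 0, 3 and 4 reads and those of stroma B held 1, 0 and 39. For Prl, the counts were 0, 9 and 1 in the A libraries against 0, 0 and 53 in the B libraries. The third stroma B library thus held 3.49 CPM of Gh and 4.74 of Prl, above the other 5. Its Pou1f1 count was 3 reads, while the others held 0 to 7. In bulk RNA, few cells of a type and little RNA per cell cannot be told apart.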

How the data were processed

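Single cells were partitioned on a Chromium Controller, per the labels' protocols. The authors deposited UMI counts for each gene in each barcode, as whole numbers. The bulk values used here are the deposited whole-number read counts per gene. Tools named in the submitters' processing notes are STAR, Cell Ranger and Seurat, and the build is mm10, all with no role or version. How reads were counted, and on which strand, is not given in the sources used here, so overlapping genes and near-identical copies are uncertain. A column of stroma A replicate 2 carries a longer name than the sample's title and was matched on its shared start.

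Cells with at least 500 genes and at most 10% mitochondrial UMIs were kept, and those with at least 5% Gh plus Prl were the members. Members and gene lists were chosen with earlier results of these data known. UMIs were summed per group without Gh and Prl. Genes with at least 20 UMIs in members or 100 CPM elsewhere were called at 4-fold, and genes with at least 20 UMIs in either hormone kind at 2-fold, with a group at 0 set to 3 UMIs. Intervals are exact Poisson or Clopper-Pearson at 95% (scipy 1.17.1). PCR copies are collapsed by UMI, and intervals cover counting error only. The steps were tested on simulated data.

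Named genes were the pituitary hormone, factor, somatotroph and lactotroph lists, the 20 highest and 10 lowest ratios to other cells (the highest with a UMI in at least 10% of members), the 10 highest and 10 lowest between kinds, and the 3 members of each other list with the most UMIs. Some genes within this rule are not reported here. Genes further named from the lists, Nnat, Xist and the Y-linked genes, and the values without the cell of most UMIs (for microglia-like cells, of most hormone UMIs), were chosen after their values were seen.

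Clusters were built without Gh and Prl from log-normalised UMIs (2000 variable genes, 30 principal components, 15 neighbours, Leiden resolution 1, scanpy 1.11.5, leidenalg 0.10.2). A class name needed 3 markers at 4-fold, 20 CPM and 20% of cells. Scrublet with all genes marked 0 cells and was taken as failed. Run without Gh and Prl at an expected 6%, it marked 458 cells, which were kept except in an alternative. Levels per cell were thinned to 1000 UMIs where stated. Alternatives were another hormone threshold, Gh and Prl kept in the totals, doublets removed, other depths, resolutions and reference cells.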

Additional observations from a re-analysis of the deposited data

Results flagged for a closer look

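Reads or UMIs of pituitary genes appeared in libraries outside the relapsed one, above the limit that a count of 0 allows. The primary library held 20 Prl UMIs, each in a cell of its own. Among the sorted astrocyte libraries, stroma A replicate 2 held 9 Prl and 7 Pou1f1 reads, and stroma A replicate 3 held 4 Gh reads. Stroma B replicate 3 held 39 Gh and 53 Prl reads. Each is a value of 1 library with no test, and the source of these reads was not tested.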

How the results depend on the processing

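No paired analysis was possible because each condition of the single-cell data has 1 library and no result comes from a test. Raising the hormone minimum to 20% left 59 cells in place of 98, with 36 Prl-led in place of 69, and moved the median log2 ratio of the corticotroph list from 2.07 to −1.51. With Gh and Prl kept in the totals, 508 genes in place of 188 were lower in hormone-rich cells, and 99 in place of 204 and 678 in place of 335 were higher in Gh-led and Prl-led cells. Removing marked doublets gave 133 genes higher in Gh-led cells. Leaving cells above 1% hormone out of the other cells lowered Gh from 99.8 to 77.7 CPM and Prl from 113 to 106 (all UMIs in the total). Thinning to 2000 UMIs gave a Gh UMI in 15.1% and a Prl UMI in 20.5% of the other cells, against 7.63% and 10.1% at 1000. At Leiden resolution 2 there were 33 clusters in place of 21. Of 2 alternatives chosen after seeing the data, the one without the other 25 pituitary-like cells turned the melanotroph median from −1.15 to 2.64, a list of 1 compared gene, Pomc, and the one without hormone-rich cells of 10 or more Tshb and Cga UMIs moved no main count by over 1.5 times. The other 71 main values stayed within 1.5 times or their counting interval. Of 40 named genes that were 4-fold higher or lower, 40 stayed so under each alternative but 2: Angpt1 and Edil3 were lost with Gh and Prl kept in the totals and Edil3 at the 20% minimum. All 20 named between the kinds stayed. Depth limits genes absent at 0 UMIs to 3.00 CPM in hormone-rich, 9.40 in Gh-led and 4.41 in Prl-led cells.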

Other observations

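Imprinted genes, which are expressed from the copy of 1 parent and are abundant in many endocrine tissues, were high in the hormone-rich cells. The list of 20 was drawn up after the levels of Dlk1 and Meg3 had been seen, so it describes and supports nothing. Of 14 compared, 7 were at least 4-fold higher and 0 lower, beside 12.8% and 3.2% of all genes compared. The median log2 ratio was 2.05 against 0.11 over all genes. Each of the 7 passed the minimum through the hormone-rich cells alone, so the count and the median are descriptions. Cdkn1c and Igf2 were lower (ratios 0.152 and 0.155) but under the minimum, so the count of 0 leaves them out. Meg3, a long noncoding RNA, stood at 8681 CPM against 28.9 and was found in 96 of 98 cells. It lies beside Dlk1 in an imprinted domain of chromosome 12, at 109541001 to 109571726 in mm10 coordinates, and Mirg, a transcript of the same domain, stood at 55.1 against 2.61. Plagl1, a zinc finger factor, stood at 195 against 5.79, Mest at 366 against 18.2, Peg3 at 334 against 65.8 and Impact at 75.1 against 16.6. Not all such genes were high: under the minimum, Cdkn1c counted 4 UMIs against 26.3 CPM in the other cells, Igf2 counted 2 UMIs and H19 0.

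Between the hormone kinds, 2 of 14 compared imprinted genes were at least 2-fold higher in Gh-led cells and 1 in Prl-led cells. Over all genes compared the shares were 4.69% and 7.7%, so counts this small describe single genes only. Nnat, which encodes neuronatin, stood at 5210 CPM in Gh-led and 930 in Prl-led cells, Sgce at 97.1 and 45.6, and Mest at 197 and 446. Meg3 was under 2-fold, at 6573 and 9670. Nr4a2, an orphan nuclear receptor, stood at 21.9 CPM in Gh-led and 227 in Prl-led cells. Prl3d1, a placental member of the prolactin family with near-identical copies that could share its reads, counted 28 UMIs, all in 1 Prl-led cell of 2512 Prl UMIs, and the other 10 listed family members counted 0.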
